A study of Mus musculus with 2 samples.

Results

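The 42 enzymes described here break down or convert phenylalanine and tyrosine, tryptophan, histidine, serine, glycine, alanine, lysine, the branched-chain amino acids, proline, methionine and cysteine, or make creatine. They were chosen by gene symbol, and all 42 were found among the 43280 symbols that were counted. Their expression was compared between 1 library of small hepatocytes (SHs) and 1 library of mature hepatocytes (MHs), both freshly isolated by collagenase perfusion from the livers of the same untreated C57BL6 mice. The labels give an age of 20 weeks for both, whereas the methods give a younger age range for the mice of the study. MHs were the cells that sedimented at low speed and passed a Percoll gradient, and they were not sorted. SHs, which the paper describes as intrinsic hepatocyte progenitors, came from the supernatant. These SHs were sorted by flow cytometry for ICAM-1 on cells that lacked CD31, CD45 and EpCAM. The methods name several mice as the source and a single set of SHs and MHs for sequencing, and do not say how the RNA of the mice was combined. No condition was replicated, so no test between SHs and MHs was possible, and differences between animals, cell isolation, sorting and sequencing runs cannot be told apart from a difference between the cells.

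The liver takes up many of the amino acids that arrive in portal blood and is the main site of breakdown for many, but not all, of them. Carbon skeletons enter glucose and ketone body synthesis and the citric acid cycle, nitrogen is passed to the urea cycle, and methyl groups flow from methionine through S-adenosylmethionine. Hepatocytes near the portal vein and near the central vein differ in these tasks. Histidase and serine dehydratase are known as portal-side enzymes, whereas ornithine aminotransferase and glutamine synthetase are known from the cells around the central vein.

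In MHs 16979136 reads were counted and in SHs 42356444, and levels are given as reads per 1000000 counted reads (RPM). The smallest level that 3 reads allow was 0.177 RPM in MHs and 0.0708 RPM in SHs. Each log2 ratio of SHs over MHs is given with a 95% Clopper-Pearson interval. Such an interval reflects the counting of reads alone, without any spread between animals or preparations, and since molecular identifiers were absent, reads are not independent molecules. A gene is called higher or lower in SHs below only where this interval lay wholly on that side of 0, which describes these 2 libraries. The 6 hepatocyte markers, among them Alb, Hnf4a and Cps1, had log2 ratios between -0.19 and 0.13, and their summed level was 75127 RPM in MHs and 79490 RPM in SHs. Endothelial, macrophage and most stellate cell markers were lower in SHs. The interval lay below 0 for all 6 endothelial markers, whose sum was 59.6 RPM in MHs and 3.66 in SHs, for all 6 macrophage markers, with 15.7 and 0.472 RPM, and for 5 of 6 stellate cell markers, with 18.1 and 1.94 RPM. The endothelial marker Lyve1 was at 0 reads in SHs. The 6 cholangiocyte markers summed to 14.0 RPM in MHs and 14.2 in SHs but did not move together, with Sox9 higher in SHs (log2 ratio 0.50), Spp1 (-0.33) and Epcam (6 reads in MHs and 1 in SHs) lower, and Krt19 and Krt7 at 1 read in each library. All 7 portal-side genes examined outside the enzyme list were higher in SHs, with log2 ratios from 0.06 for Cyp2f2 to 1.29 for Aldh1b1, and all 7 central-side genes were lower, from -4.23 for Slc1a2 to -1.26 for Rgn. The part of cell composition in the differences between the enzymes was not tested, and in bulk RNA fewer cells of a type cannot be told apart from less RNA per cell.

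Many of the enzymes were strongly expressed in both libraries, and the 42 as a set took a somewhat larger share of the reads in SHs. Of the 42, 6 were above 1000 RPM in MHs and 9 in SHs, and 11 were among the 200 genes with the most reads in each library. Together they held 356020 reads in MHs, 2.10% of the library (95% interval 2.09% to 2.10%), and 1025254 reads in SHs, 2.42% (2.42% to 2.43%). The ratio of the sums was 1.15-fold. The median log2 ratio over the 41 enzymes with at least 200 reads in both libraries together was 0.16, beside 0.03 over the 9608 genes that passed the same minimum. The minimum was set on the sum of both libraries, and the enzyme under it was Gatm, with 35 reads in MHs and 2 in SHs.

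Differences of single enzymes were small. None of the 41 was at least 1.5-fold higher in SHs with its interval above 0, where 1.86% of all 9608 genes were. Only Csad was at least 1.5-fold lower, where 2.10% of all genes were. At a smaller limit, 8 of the 41 enzymes were at least 25% higher in SHs, beside 7.99% of all genes, and Csad was again the only enzyme at least 20% lower, beside 7.34% of all genes. The 8 were Gldc, Sds, Hal, Sdsl, Agxt, Amdhd1, Cbs and Uroc1. The interval lay above 0 for 32 of 41 enzymes and for 23.2% of all genes, and below 0 for 4 enzymes and for 16.9% of all genes. For the other 5 it included 0.

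Genes with many reads have narrow intervals, and most of the enzymes have many reads. Among genes with at least 5000 reads, a minimum added after the values were seen, the interval lay above 0 for 27 of 34 enzymes and for 42.9% of 1299 genes, and below 0 for 4 enzymes and 35.8% of the genes. Of the 34 enzymes, 7 were at least 25% higher in SHs, beside 6.08% of the genes. The median log2 ratio was 0.15 over these enzymes and 0.02 over these genes.

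**Figure D1:**
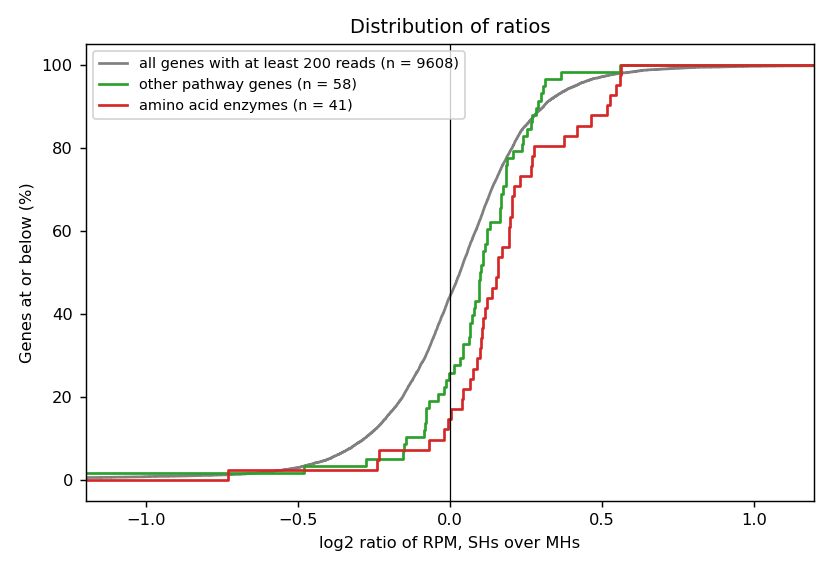
Cumulative share of genes (vertical axis, percent) by the log2 ratio of RPM in SHs over MHs (horizontal axis, drawn from -1.2 to 1.2) for the 41 amino acid enzymes, 58 other genes of the same pathways and all 9608 genes with at least 200 reads. The curve of the enzymes lies to the right of that of all genes over most of its course, with medians of 0.16 and 0.03.

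**Figure D2:**
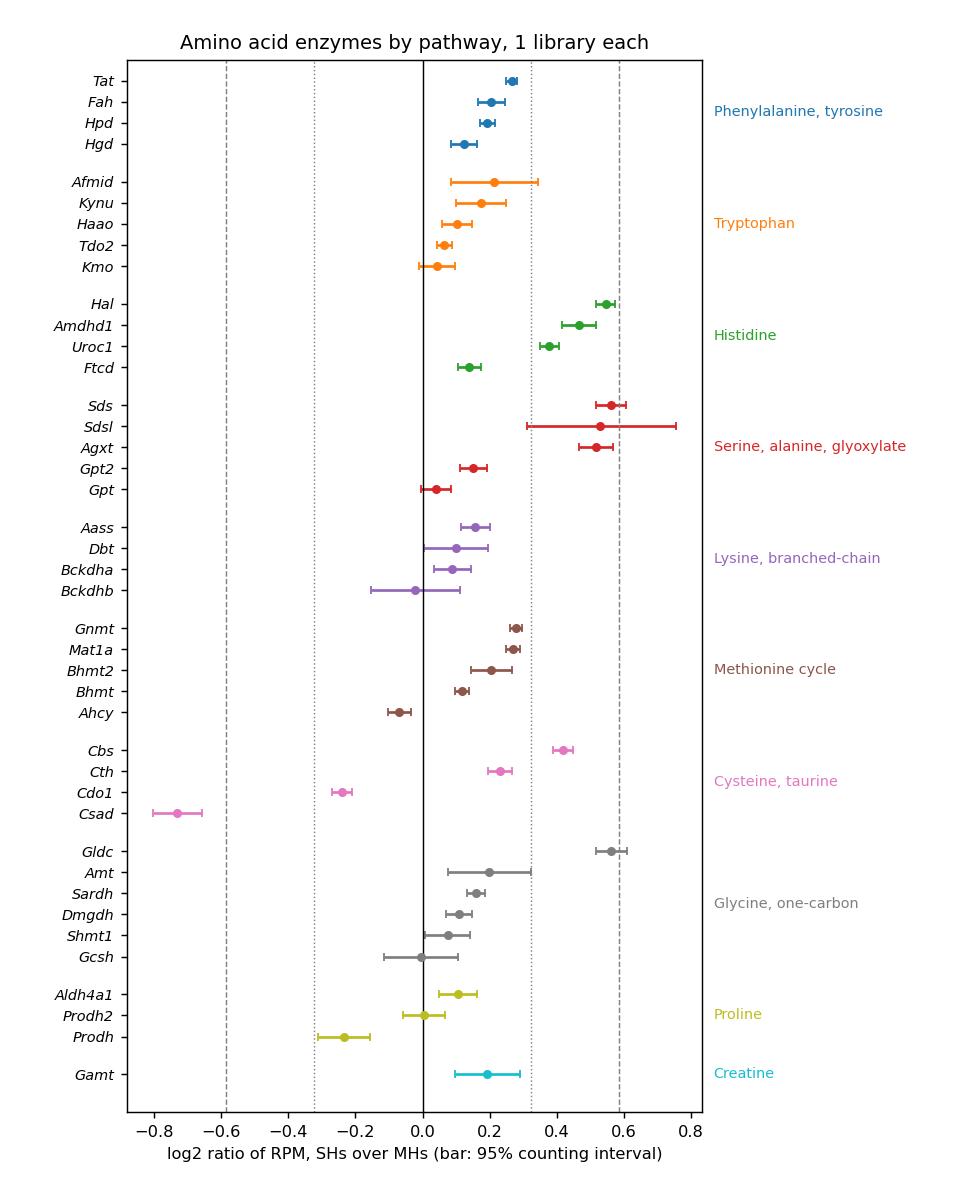
Log2 ratio of RPM in SHs over MHs (horizontal axis) for the 41 enzymes with at least 200 reads, grouped by pathway. Points are ratios between 1 library each, bars are 95% counting intervals, dotted lines mark 25% higher and 20% lower and dashed lines 1.5-fold. Gldc, Sds, Hal, Sdsl and Agxt lie furthest to the right, and Csad lies alone beyond the dashed line on the left.

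Transcripts of all 4 enzymes of histidine breakdown were higher in SHs, and the ratio was largest for the entry enzyme. All 4 had at least 5000 reads, and 42.9% of all genes with that minimum were higher in SHs. Hal encodes histidase, which removes ammonia from histidine to give urocanate. It had 761 RPM in MHs and 1111 RPM in SHs, giving a log2 ratio of 0.55 (95% interval 0.52 to 0.57). Uroc1, the urocanate hydratase of the next step, had 778 RPM in MHs and 1009.9 RPM in SHs, giving a log2 ratio of 0.38 (0.35 to 0.41). Amdhd1, which opens the imidazolone ring, had 236 and 325 RPM, giving a log2 ratio of 0.47 (0.41 to 0.52). Ftcd, which hands the formimino group to folate, had 558 and 615 RPM, giving a log2 ratio of 0.14 (0.11 to 0.17). The interval of Ftcd did not overlap those of the other histidine enzymes. The 4 enzymes together had 2333 RPM in MHs and 3061 RPM in SHs, the largest log2 ratio of a pathway sum among the 10 groups, 0.39 (0.38 to 0.41). In MHs, Hal and Uroc1 had nearly equal reads, 0.979 reads of Hal for each read of Uroc1, and in SHs this was 1.10.

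Among the enzymes of serine, alanine and glyoxylate, the dehydratases and Agxt were higher in SHs and the alanine aminotransferases differed less. Sds, serine dehydratase, which turns serine into pyruvate, had 305 RPM in MHs and 449.9 RPM in SHs, giving a log2 ratio of 0.56 (0.52 to 0.61). Its paralog Sdsl was counted with 217 reads in MHs and with 782 in SHs, and per length of exon the level of Sds was 21.1 times that of Sdsl in MHs and 21.5 times in SHs. Its level was 12.8 RPM in MHs and 18.5 RPM in SHs, giving a log2 ratio of 0.53 (0.31 to 0.75). The number of Sds reads for each Sdsl read was 23.9 in MHs (20.8 to 27.5) and 24.4 in SHs (22.7 to 26.2), so the balance of the paralogs did not differ beyond counting error. Agxt, an aminotransferase that converts glyoxylate to glycine, had 238 RPM in MHs and 341 RPM in SHs, giving a log2 ratio of 0.52 (0.47 to 0.57). Gpt, the cytosolic alanine aminotransferase, had 344 and 353 RPM, and its interval reached from just below 0 to 0.08. The mitochondrial Gpt2 had 396 and 439 RPM, giving a log2 ratio of 0.15 (0.11 to 0.19). Sds, Sdsl and Agxt were thus the members of this group that were at least 25% higher in SHs.

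In the glycine cleavage system and the one-carbon enzymes around it, Gldc stood apart from its partners. Gldc, the decarboxylase that starts glycine cleavage, had 288 RPM in MHs and 425 RPM in SHs, giving a log2 ratio of 0.56 (0.52 to 0.61), the highest among the 42 enzymes and above 97.9% of all 9608 genes. Amt, the aminomethyltransferase of the same complex, had 42.2 and 48.4 RPM, giving a log2 ratio of 0.20 (0.08 to 0.32). Gcsh, its lipoyl carrier protein, had 56.3 and 56.1 RPM, with an interval of -0.11 to 0.11. Neither the interval of Amt nor that of Gcsh reached that of Gldc. Within each library, Gldc had 5.12 reads for each Gcsh read in MHs (4.77 to 5.49) and 7.58 in SHs (7.26 to 7.92), so the balance of the subunits' reads differed between the libraries beyond counting error. Shmt1, which moves a carbon between serine and glycine, had 149.8 and 158 RPM, giving a log2 ratio of 0.07 (0.01 to 0.14). The sequential demethylases of dimethylglycine and sarcosine, Dmgdh and Sardh, had log2 ratios of 0.11 (0.07 to 0.15) and 0.16 (0.13 to 0.19), with 452 and 488 RPM for Dmgdh and 898 and 1003 RPM for Sardh.

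In cysteine and taurine metabolism, transcripts of the transsulfuration enzymes Cbs and Cth and those of Cdo1 and Csad went opposite ways. Cbs joins homocysteine and serine to cystathionine. It had 702 RPM in MHs and 938 RPM in SHs, giving a log2 ratio of 0.42 (0.39 to 0.45). Cth, which releases cysteine from cystathionine, had 460.2 and 540.0 RPM, giving a log2 ratio of 0.23 (0.19 to 0.27). For Cdo1 and Csad, which act on cysteine and its oxidation product, the sign changed. Cdo1, the dioxygenase that oxidizes cysteine, had 813 RPM in MHs and 689 RPM in SHs, giving a log2 ratio of -0.24 (-0.27 to -0.21). Csad, which decarboxylates the product towards taurine, was counted with 2506 reads in MHs and 3770 in SHs, whose library held more reads in all. On the RPM scale it had 147.6 in MHs and 89.0 in SHs, giving a log2 ratio of -0.73 (-0.80 to -0.66), or 1.66-fold lower in SHs. Only 1.28% of the 9608 genes had a lower ratio. Exons of Csad overlap the oppositely oriented gene Zfp740 over 7.26% of their length, and Zfp740 had 276 reads in MHs and 611 in SHs, fewer than Csad in both libraries. For each Csad read there were 5.51 Cdo1 reads in MHs (5.28 to 5.75) and 7.74 in SHs (7.48 to 8.01). Among other genes of cysteine and taurine metabolism, 6 had at least 200 reads, and all 6 had a log2 ratio above 0, beside 5361 of all 9608 genes. They ranged from 0.01 for Baat to 0.37 for Got1. The interval lay above 0 for 4 of them, beside 23.2% of all genes, and below 0 for 0.

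The methionine cycle held the largest sum of reads of any pathway, 5563 RPM in MHs and 6388 RPM in SHs. Of its 5 enzymes, which all had at least 5000 reads, 4 were higher in SHs, beside 42.9% of all genes with that minimum. Mat1a makes S-adenosylmethionine in hepatocytes. It had 1322 RPM in MHs and 1593 RPM in SHs, giving a log2 ratio of 0.27 (0.25 to 0.29). Gnmt, which uses S-adenosylmethionine to methylate glycine, had 2050.3 and 2486 RPM, giving a log2 ratio of 0.28 (0.26 to 0.30). Both were thus higher in SHs by similar amounts, with overlapping intervals. Ahcy, the hydrolase of S-adenosylhomocysteine in the following step, was slightly lower in SHs, with 602 and 574 RPM and a log2 ratio of -0.07 (-0.10 to -0.04). Bhmt and Bhmt2 remethylate homocysteine. Bhmt had 1417 and 1537 RPM, giving a log2 ratio of 0.12 (0.10 to 0.14), and Bhmt2 had 172 and 198 RPM, giving a log2 ratio of 0.20 (0.14 to 0.27). The upper bound of Bhmt, 0.138, lay just below the lower bound of Bhmt2, 0.144, so these intervals did not overlap. Reads of close paralogs are uncertain where the counting divided them.

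All 4 enzymes of tyrosine breakdown were higher in SHs by small amounts. Each had at least 5000 reads, and 42.9% of all genes with that minimum were higher. Tat, tyrosine aminotransferase, is induced by glucocorticoids and had the most reads of the 42 enzymes in both libraries. It had 2517 RPM in MHs and 3026 RPM in SHs, giving a log2 ratio of 0.27 (0.25 to 0.28). Hpd, the next enzyme, had 1221 and 1395 RPM, giving a log2 ratio of 0.19 (0.17 to 0.22). Hgd, homogentisate dioxygenase, had 420.1 and 457 RPM and the lowest log2 ratio of the 4, 0.12 (0.08 to 0.16). Fah, fumarylacetoacetase, which closes the pathway, had 387 and 447 RPM, giving a log2 ratio of 0.21 (0.16 to 0.25). From Tat to Fah the ratios therefore had no common trend along the pathway.

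Transcripts of tryptophan breakdown differed little between the libraries. Tdo2, the dioxygenase that opens the indole ring and a common hepatocyte marker, had 1284 RPM in MHs and 1343 RPM in SHs, giving a log2 ratio of 0.06 (0.04 to 0.09). Kmo, which hydroxylates kynurenine, had 231 and 238 RPM, and its interval of -0.01 to 0.10 included 0. Haao, the dioxygenase before quinolinate, had 321 and 345 RPM, giving a log2 ratio of 0.10 (0.06 to 0.15). Kynu, kynureninase, and Afmid, kynurenine formamidase, are the hydrolases of the pathway. Kynu had 118 and 133 RPM, giving a log2 ratio of 0.17 (0.10 to 0.25), and Afmid had 39.0 and 45.2 RPM, giving a log2 ratio of 0.21 (0.08 to 0.34). The sum of the 5 enzymes was 1994 RPM in MHs and 2104 RPM in SHs.

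Transcripts of the branched-chain ketoacid dehydrogenase also differed little. Bckdha, its E1 alpha subunit, had 219 and 233 RPM, giving a log2 ratio of 0.09 (0.03 to 0.14). Bckdhb, the E1 beta subunit, had 38.5 and 37.9 RPM, with an interval of -0.15 to 0.11. Dbt, the E2 core, had 71.3 and 76.4 RPM, with an interval of 0.00 to 0.20 that lay just above 0. All 3 subunits had overlapping intervals. Aass, the bifunctional enzyme that starts lysine breakdown, had 339 and 378 RPM, giving a log2 ratio of 0.16 (0.11 to 0.20). Of Bckdha's annotated exon length, 61.7% also belongs to B3gnt8 on the opposite strand, which was listed at 0 reads in both libraries. On the same strand, Afmid shares 44.2% of its exon length with Gm20708, which was listed at 0 reads in both libraries, and Aldh4a1 shares 32.5% with Gm21969, which had 1 read in MHs and 6 in SHs, so the values of Afmid and Aldh4a1 depend on how shared reads were assigned. Whether the counting used strand is not given in the sources used here.

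Of the proline enzymes, Prodh was lower in SHs. This proline dehydrogenase had 119 RPM in MHs and 101 RPM in SHs, giving a log2 ratio of -0.23 (-0.31 to -0.16). Prodh2, the hydroxyproline dehydrogenase, had 172 and 173 RPM, with an interval of -0.06 to 0.07. Aldh4a1, which both pathways share, had 198 and 213 RPM, giving a log2 ratio of 0.11 (0.05 to 0.16). Their sum was 489 RPM in MHs and 487 RPM in SHs, with an interval of the log2 ratio from -0.04 to 0.03.

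The enzymes of creatine synthesis had very different levels. Gamt, the methyltransferase of the second step, had 69.3 RPM in MHs and 79.2 RPM in SHs, giving a log2 ratio of 0.19 (0.10 to 0.29). Gatm, the amidinotransferase of the first step, had few reads in MHs and was near the limit of detection in SHs. Its 35 reads in MHs were 2.06 RPM and its 2 reads in SHs were 0.0472 RPM, below the level that 3 reads allow. With 0.5 reads added it was 35.4 times lower in SHs, with a counting interval of 11.2 to 375 times, and the size of this fold depends on the reads added, with a log2 ratio of -5.15 for 0.5 reads and -4.53 for 2 reads. The macrophage marker Vsig4 had similar counts, 33 reads in MHs and 2 in SHs. So did the stellate cell marker Lrat, with 39 reads in MHs and 2 in SHs. Both markers were chosen after their values were seen, so their likeness to Gatm may come from that choice. Log2 ratios ranged from -5.46 to -2.11 over the 6 macrophage markers and from -6.87 to 0.80 over the 6 stellate cell markers. Unlike Gatm, Reln (130 and 64 reads) and Ptprc (9 and 5) were less strongly reduced. For Col1a1 (1 and 6) the ratio was above 0, with an interval that included 0. The part of macrophages, stellate cells or other cell types in the Gatm reads was not tested.

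**Figure D3:**
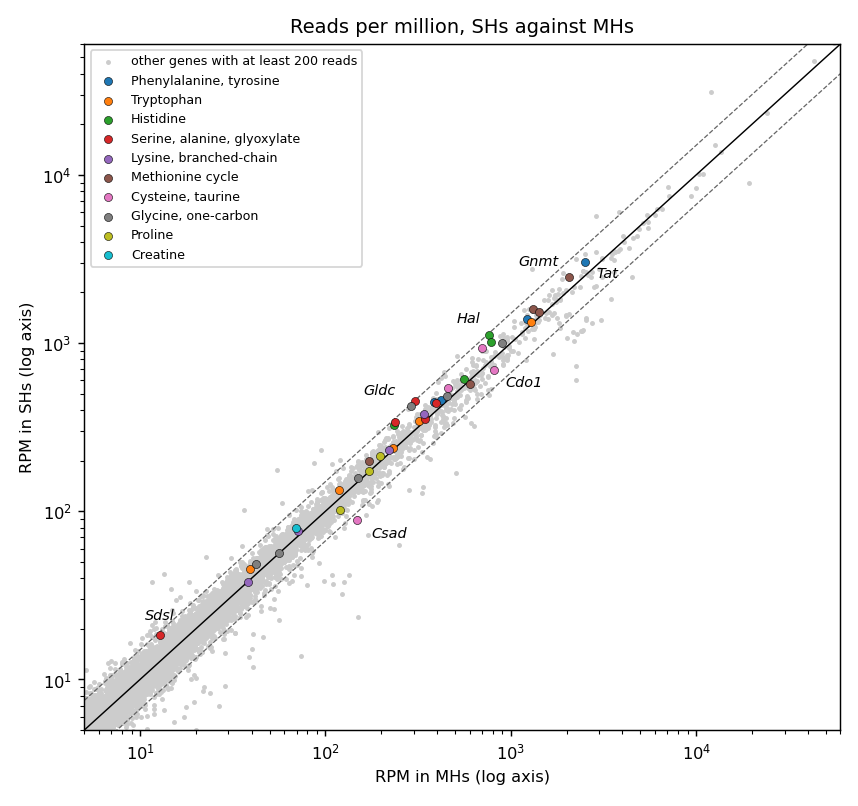
RPM in SHs (vertical log axis) against RPM in MHs (horizontal log axis) for the 41 enzymes with at least 200 reads, coloured by pathway, over all other genes with at least 200 reads in grey, with both axes starting at 5 RPM. The solid line marks equal levels and the dashed lines 1.5-fold; every enzyme but Csad lies between the dashed lines, and Gldc and Hal lie close to the upper line.

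Levels were compared between enzymes per length, as RPM for each 1000 bases of annotated exon. On this scale Gnmt was highest, with 1700.1 in MHs and 2062 in SHs, followed by Tat with 1047 and 1258 and Hpd with 574 and 656. Cdo1 came next in MHs, with 494, ahead of Mat1a with 381, whereas in SHs Mat1a had 459 and Cdo1 had 419. The lowest level apart from Gatm was that of Sdsl, with 8.54 in MHs and 12.3 in SHs. The levels thus spanned more than 100-fold between Gnmt and Sdsl. The 5 enzymes with the most reads held 41.0% of all reads on the 42 enzymes in MHs and 41.5% in SHs.

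The order of the enzymes was much alike in both libraries. Spearman's rho of the levels per length over the 42 enzymes was 0.991, a description across genes that share both libraries. No enzyme moved by more than 4 places, and 15 kept their place. Of the 41 pairs of neighbours in this order, counting intervals overlapped for 18 in MHs and 15 in SHs, so their order was not fixed by the reads. Hal and Agxt were such a pair in both libraries. With the longest transcript in place of all annotated exons, 68 of the 84 levels moved. A level was counted as moved where it changed by more than the distance from the middle of its interval to a bound. The order of close neighbours therefore also rests on the gene models.

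**Figure D4:**
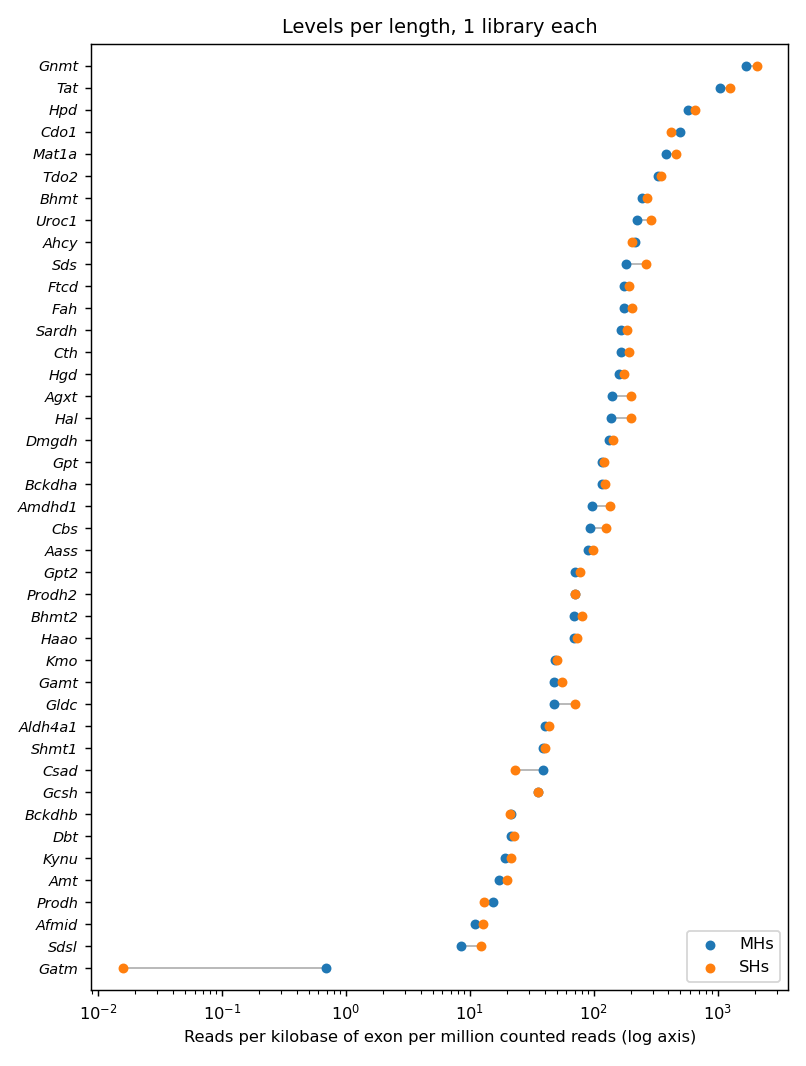
RPM for each 1000 bases of exon (horizontal log axis) of each of the 42 enzymes in MHs (blue) and SHs (orange), 1 library each, ordered by the level in MHs. Most points of a gene lie close together; Gldc, Sds, Hal and Agxt lie higher in SHs, Csad lies lower, and Gatm lies far below all others.

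Several of the enzymes are neighbours in the genome. Coordinates are those of GENCODE M21 on mm10. Hal (chromosome 10, 93488768 to 93519304) and Amdhd1 (93523338 to 93540033) face each other tail to tail, 4033 bases apart, with no protein-coding gene between them. Both act in histidine breakdown, and they were 1.46-fold and 1.38-fold higher in SHs. Sdsl (chromosome 5, 120458186 to 120472810) and Sds (120476526 to 120483932) lie head to head, 3715 bases apart, and were 1.44-fold and 1.48-fold higher. Bhmt, Bhmt2 and Dmgdh follow each other on chromosome 13. Bhmt2 and Dmgdh are transcribed away from each other from starts 130 bases apart, and were 1.15-fold and 1.08-fold higher. Exons of Sds overlap those of the oppositely oriented Plbd2 over 21.3% of their length, and Plbd2 had 967 reads in MHs and 2556 in SHs, fewer than Sds in both.

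The sequences before the starts of Gldc, Hal, Amdhd1 and Agxt are shown because these are the enzymes with the highest ratios for which a start was listed. They are the 250 bases upstream of the RefSeq start in GRCm38.p6, the assembly that mm10 names, read 5′ to 3′ on the gene's strand, with matches to searched motifs in capitals.
Gldc (chr19:30175442-30175691, minus strand): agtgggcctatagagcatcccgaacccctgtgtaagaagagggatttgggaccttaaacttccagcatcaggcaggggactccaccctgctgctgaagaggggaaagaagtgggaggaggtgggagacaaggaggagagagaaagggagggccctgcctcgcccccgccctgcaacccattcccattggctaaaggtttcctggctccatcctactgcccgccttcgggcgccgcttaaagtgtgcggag
Hal (chr10:93488518-93488767, plus strand): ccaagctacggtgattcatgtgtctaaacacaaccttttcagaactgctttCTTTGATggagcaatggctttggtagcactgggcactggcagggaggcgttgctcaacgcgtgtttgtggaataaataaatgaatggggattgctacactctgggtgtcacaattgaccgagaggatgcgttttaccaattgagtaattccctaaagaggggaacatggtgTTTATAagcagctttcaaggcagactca
Amdhd1 (chr10:93540034-93540283, minus strand): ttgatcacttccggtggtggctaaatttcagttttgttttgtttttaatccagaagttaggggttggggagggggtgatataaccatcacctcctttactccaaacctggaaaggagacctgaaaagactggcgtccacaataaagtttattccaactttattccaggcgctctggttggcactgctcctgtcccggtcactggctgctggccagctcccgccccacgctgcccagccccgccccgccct
Agxt (chr1:93134990-93135239, plus strand): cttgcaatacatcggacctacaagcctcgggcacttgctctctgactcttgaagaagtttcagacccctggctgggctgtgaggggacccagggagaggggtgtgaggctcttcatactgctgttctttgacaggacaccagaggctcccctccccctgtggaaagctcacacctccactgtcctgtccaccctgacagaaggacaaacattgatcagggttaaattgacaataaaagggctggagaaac
Windows were found for 34 of the 42 enzymes, 36 windows in all, and were searched on both strands for TATAAA (the letters of a TATA box), ATCAAAG (TCF/LEF), CAAAGTCCA (HNF4), TTGCGCAA (C/EBP) and TGACGTCA (the cyclic AMP response element). Of these windows, 4 held TATAAA, those of Ftcd, Hal, Hgd and Tdo2, or 11.1%, beside 12.4% of all 32851 windows. The matches lie at different distances from the start, 29 bases before it in Ftcd, 139 in Hgd and 229 in Tdo2. In Hal it begins 28 bases before the start and reads TTTATA, so the motif lies on the strand opposite to the gene. ATCAAAG was found in the windows of Hal and Haao, 5.56% of the enzymes' windows and 3.21% of all, in Hal again on the opposite strand, as CTTTGAT. The other motifs were in 0 of the 36 windows, and in 0.384%, 0.164% and 1.55% of all windows for CAAAGTCCA, TTGCGCAA and TGACGTCA. A match is a run of letters and not a measured binding site.

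The enzymes were also grouped by cofactor and place in the cell, groupings made after the values were known. The 12 enzymes that use pyridoxal phosphate, the active form of vitamin B6, all had at least 200 reads. Their median log2 ratio was 0.25, from -0.73 for Csad to 0.56 for Gldc. At least 25% higher in SHs were 5 of the 12, beside 8 of all 41 enzymes and 7.99% of all 9608 genes. The other 29 had a median of 0.12. The 5 heme or iron dioxygenases, Tdo2, Hpd, Hgd, Haao and Cdo1, ranged from -0.24 to 0.19. The 5 enzymes grouped as folate-using, Ftcd, Amt, Shmt1, Dmgdh and Sardh, were all higher in SHs, between 0.07 and 0.20. This stands beside 32 of all 41 enzymes and 23.2% of all 9608 genes. The 5 enzymes grouped as flavin enzymes ranged from -0.23 to 0.16. Their interval lay above 0 for 2, beside 23.2% of all genes, and below 0 for 1, beside 16.9%. The 14 mitochondrial enzymes had a median of 0.10. Only Gldc among them was at least 25% higher, beside 8 of all 41 enzymes and 7.99% of all genes. The 26 enzymes outside mitochondria, with Agxt and Gatm left out of both groups, had a median of 0.20.

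Other genes of the same pathways were examined from a list of 65 counted symbols, of which 58 had at least 200 reads. Their median log2 ratio was 0.10, the interval lay above 0 for 33, beside 23.2% of all 9608 genes, and below 0 for 6, beside 16.9%. At least 1.5-fold higher were 0 of 58, beside 1.86% of all genes. The only gene at least 1.5-fold lower, beside 2.10% of all genes, was Oat, ornithine aminotransferase, with 4237 reads in MHs and 2685 in SHs. It is also among the 7 central-side genes above. Its log2 ratio was -1.98 (-2.05 to -1.91), below that of every enzyme with at least 200 reads. Dld, the subunit that glycine cleavage shares with the branched-chain dehydrogenase, had an interval of -0.01 to 0.21. Acmsd, which steers tryptophan carbon away from quinolinate, was counted with 360 reads in MHs and with 1326 in SHs, giving a log2 ratio of 0.56 (0.39 to 0.73). Mat2a, the methionine adenosyltransferase of most other tissues, went against Mat1a, with 478 and 854 reads and a log2 ratio of -0.48 (-0.64 to -0.32). Acmsd, Dld and Mat2a were picked for naming after their values were seen.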

How the data were processed

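The authors sequenced poly(A) RNA of 1 sample of MHs and 1 of SHs on an Ion Proton system and deposited, for each, whole-number counts of reads per gene symbol without normalization. The methods describe trimming, alignment to mm10 in CLC Genomics Workbench with a limit on the places a read may map to, and RPKM values; the program and annotation behind the whole counts are not given in the sources used here, so reads of paralogs and overlapping genes are uncertain.

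RPM was computed over the counted reads of each library, and log2 ratios with 0.5 added reads, over the whole table, in Python 3.11.15 (scipy 1.17.1, pandas 2.3.3). Calls were made where MHs and SHs had 200 reads or more in sum, at 1.5-fold and, as an alternative, at 25% higher or 20% lower. Intervals are 95% Clopper-Pearson. The median of a group's ratios stands beside that of all genes. Levels per length used the union of GENCODE M21 exons. Alternatives were scaling by TMM (edgeR 4.0.16 in R 4.3.3), by DESeq2 1.42.0 size factors and by a library total that omits the 10 most counted genes, besides 2 added reads and other minimums and folds. The calculation was tested on simulated counts. The enzymes and lists were chosen with earlier results of these data known. All 42 enzymes were named by rule, as were other pathway genes past 1.5-fold.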

Additional observations from a re-analysis of the deposited data

How the results depend on the processing

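No paired analysis was possible because MHs and SHs had 1 library each and share no further replicate. Scaling shifted all log2 ratios alike, by 0.01 with TMM or DESeq2 size factors and by 0.03 with a library total that omits the 10 most counted genes. Under the last, 2 enzymes in place of 0 were at least 1.5-fold higher in SHs, while over all 9608 genes 206 in place of 179 were higher and 176 in place of 202 lower. In the same setting 11 of the 42 single ratios moved by more than the distance from the middle of their interval to its bounds. The share of reads on the enzymes was then 2.66% in MHs and 3.14% in SHs. No enzyme changed sides with its interval off 0 under any scaling or with 2 added reads. The median of the cysteine and taurine enzymes, -0.0041, had the other sign under all 3 scalings, with a highest value of 0.0274. The median of the serine, alanine and glyoxylate enzymes was 0.33 without Sdsl, at a minimum of 1000 reads. With the smaller limit, 8 enzymes were at least 25% higher, and at 2-fold 0 were lower. Over all genes, the numbers higher and lower were 768 and 705 with the limits of 25% higher and 20% lower, 34 and 78 at 2-fold, 367 and 508 with at least 50 reads, 44 and 85 with at least 1000 reads, and 16 and 42 with at least 5000 reads, a minimum added after the data were seen. These counts follow from fewer or more genes passing. Depth limits Gatm and, less so, Sdsl, Bckdhb, Afmid and Amt.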

Other observations

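Carriers that move amino acids were not part of the enzyme list and were looked up afterwards. Of 16 carriers of the cell surface, 11 had at least 200 reads. Their median log2 ratio was 0.04, beside 0.03 over all 9608 genes. The interval lay above 0 for 4 of them, beside 23.2% of all genes, and below 0 for 4, beside 16.9%. Those with the most reads, Slc38a4 and Slc38a3, which take up neutral amino acids and glutamine, had ratios of opposite sign. Slc38a4 was counted with 18852 reads in MHs and with 42967 in SHs, giving a log2 ratio of -0.13 (-0.16 to -0.11), and Slc38a3 had 17215 and 46102, giving a log2 ratio of 0.10 (0.08 to 0.13). The lowest of the 11 was Slc16a10, a carrier of aromatic amino acids, with 841 and 1580 reads and a log2 ratio of -0.41 (-0.53 to -0.29). The highest was Slc43a1, with 82 and 285 reads and a log2 ratio of 0.47 (0.12 to 0.85).

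All 6 mitochondrial carriers examined had a log2 ratio above 0, with a median of 0.10 and an interval above 0 for 3. Over all 9608 genes, 5361 had a ratio above 0, and 23.2% had an interval above 0. Slc25a15, the ornithine carrier, was counted with 3574 reads in MHs and with 11267 in SHs, giving a log2 ratio of 0.34 (0.28 to 0.39). The aspartate-glutamate carriers Slc25a12 and Slc25a13 had log2 ratios of 0.37 (0.18 to 0.57) and 0.08 (0.02 to 0.15). The spread between libraries of one condition is unknown, as for the enzymes.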
